A study of Homo sapiens with 4 samples.

Results

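The genes on both sides of the let-7a-3 and let-7b microRNA genes, in band q13.31 of chromosome 22, were followed in A549 cells transfected to overexpress let-7a-3. A549 is an established human lung adenocarcinoma cell line. Here 10 protein-coding genes were taken by their position. Along the chromosome they are FBLN1, ATXN10 and WNT7B before the microRNA genes, and PPARA, CDPF1, PKDREJ, TTC38, GTSE1, TRMU and CELSR1 after them. The stretch from FBLN1 to CELSR1 holds 12 genes annotated as protein-coding. LOC105373071, between ATXN10 and WNT7B, and LOC124905135, between WNT7B and let-7a-3, had no probe with 1 symbol and are not among the 10. All 10 were measured, by 16 of the 26629 probes of the array and as 10 of the 12483 genes with a symbol. FBLN1, WNT7B, CDPF1, PKDREJ, TTC38, GTSE1 and TRMU had 1 probe each, CELSR1 had 2, ATXN10 3 and PPARA 4. A clone annotated to both PPARA and CDPF1 was left out, because the members were taken from probes with 1 symbol. Probes carry IMAGE and RZPD clone names, and different probes of a gene are called its clones here.

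Total RNA was amplified once, labelled with Cy3 or Cy5 and hybridised to 4 two-colour arrays. On each array a let-7a-3 overexpressing A549 culture was set against a parental A549 culture, both grown in DMEM with foetal calf serum and otherwise left without treatment. The control was the parental line, and no culture with an empty vector is described. Neither the vector and its promoter nor the number of clones behind the transfected cultures could be read from the sources used here. Read from the numbering of the RNA sources, arrays 1 and 3 had 1 dye orientation and arrays 2 and 4 the other. The arrays are described as biological replicates in the series text. In the main fit p-values measure the spread between arrays of the same dye orientation, moderated by a variance shared between probes or genes. They do not measure the whole spread over the 4 arrays.

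Values are normalized log ratios between the channels, as deposited. Neither the base of the logarithm nor the channel in the numerator is stated, so no fold is given, and turning the sign would make every positive value negative. Each probe was fitted with a shared component, common to all 4 arrays, and an alternating component that changes sign with the dye orientation and is written with the sign of arrays 1 and 3. Which of them holds the difference between let-7a-3 and parental cells is not settled by the labels. If the authors turned all arrays 1 way before deposit, it would lie in the shared component, and otherwise in the alternating one. A ratio from bulk RNA cannot tell fewer cells carrying a transcript from less of it per cell. Ratios hold no levels, so the cell line could not be checked against marker genes.

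MicroRNAs are cut from hairpin transcripts and guide Argonaute proteins to messenger RNAs, chiefly by pairing of the seed near the 5′ end, which lowers the stability and translation of the target. The let-7 family is known as a brake on growth and is often reduced in lung cancer. The let-7a-3 and let-7b hairpins lie close together at the end of a long non-coding host transcript, MIRLET7BHG, on the plus strand. The hairpins are printed here because the gene that was overexpressed and the place that defines the 10 genes are the same. Sequences are from RefSeq (GRCh38.p14), with the mature 5p strand of each hairpin in capitals. The let-7a-3 hairpin is at chr22:46112749-46112822 and the let-7b hairpin at chr22:46113686-46113768.
let-7a-3 hairpin: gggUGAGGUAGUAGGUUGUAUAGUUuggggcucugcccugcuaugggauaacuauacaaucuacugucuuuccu
let-7b hairpin: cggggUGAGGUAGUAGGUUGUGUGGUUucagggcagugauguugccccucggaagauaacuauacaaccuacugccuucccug

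The mature strands are shown next, with the seed (bases 2 to 8) in capitals, because the seed is what let-7a-3 shares with the rest of the family. Let-7b differs from let-7a by A17G and A19G, and let-7e by U9G, counted from 1 at the 5′ end of let-7a. All 9 mature 5p sequences of the family in the table, miR-98 included, have the same seed. The let-7a sequence is made by 3 genes, let-7a-1, let-7a-2 and let-7a-3, on 3 chromosomes, so the mature strand alone does not tell which of them it came from.
hsa-let-7a-5p: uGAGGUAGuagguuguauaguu
hsa-let-7b-5p: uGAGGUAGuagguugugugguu
hsa-let-7e-5p: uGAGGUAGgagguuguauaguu

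None of the probes of these 10 genes had a shared component that passed the test, and 2 adjoining genes, PKDREJ and CDPF1, passed in the alternating component with opposite signs. In the shared component 0 of 16 probes passed a limma adjusted p of 0.05, against 2.07% of all probes, and 1 of 16 had an unadjusted p under 0.05, against 12.5% of all probes. The 16 shared values lay between -0.12 and 0.09, with a median of 0.002, against 0.008 for all probes. Their 95% intervals lay between -0.27 and 0.22, so larger shared log ratios fall outside the interval of every member probe. In the alternating component 2 of 16 probes passed, against 4.28% of all probes. Of these 1 was positive and 1 negative, against 2.81% and 1.48% of all probes. An unadjusted p under 0.05 was reached by 4 of 16, against 25.2% of all probes. The values of both orientations did not overlap in 6 of 16 member probes, and did not in 57% of all probes.

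**Figure D1:**
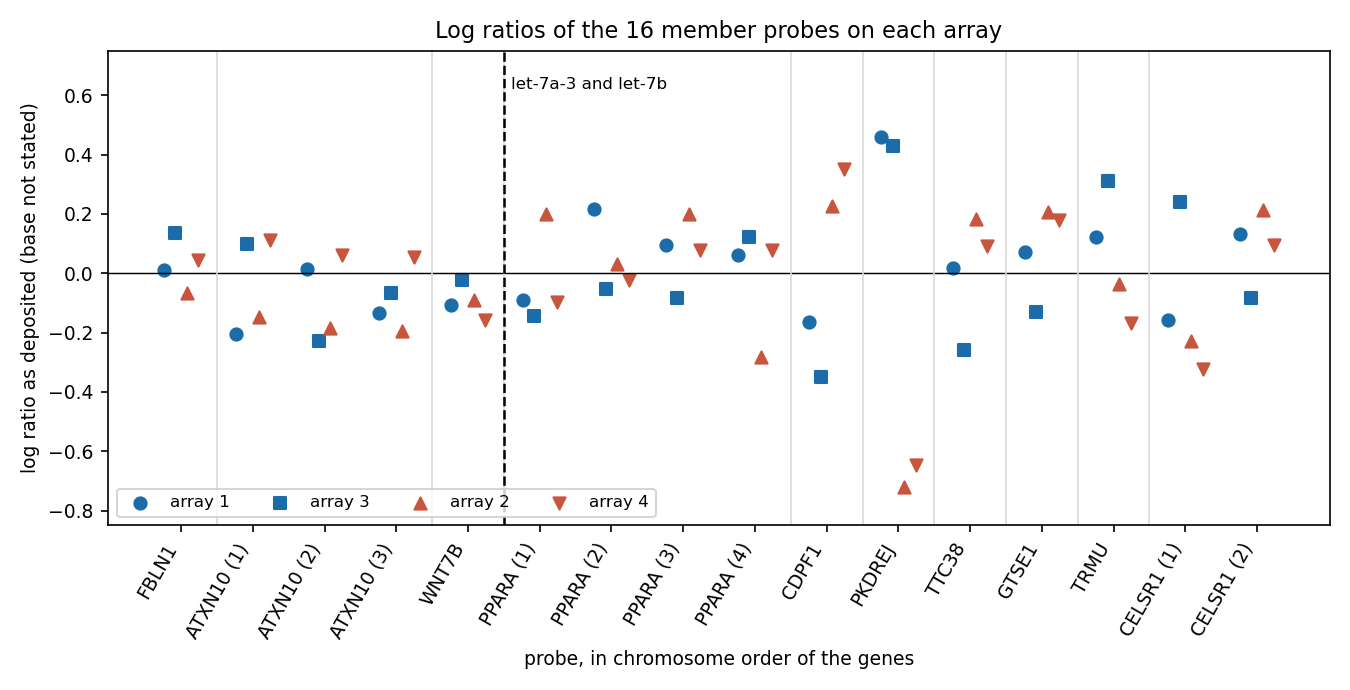
Log ratio as deposited (vertical axis, base of the logarithm not stated) of each of the 16 member probes on each of the 4 arrays, with the genes in chromosome order and numbers in brackets for probes of 1 gene. Blue circles and squares are arrays 1 and 3, red triangles arrays 2 and 4, and the dashed line marks the let-7a-3 and let-7b genes. PKDREJ stands above 0.4 on arrays 1 and 3 and below -0.6 on arrays 2 and 4, and CDPF1 goes the other way, while WNT7B is below 0 on all 4.

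FBLN1, the first of the genes before the microRNAs, encodes fibulin 1, a glycoprotein of the extracellular matrix and of basement membranes. Its probe (IMAGp998G13179) read 0.011, -0.068, 0.14 and 0.045 on arrays 1 to 4. The values straddle 0 and the orientations overlap. The shared component was 0.031 ± 0.052 (standard error, as are all errors after ± for a component; limma adjusted p = 0.853) and the alternating one 0.043 ± 0.052 (adjusted p = 0.641).

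ATXN10 encodes ataxin 10, a cytoplasmic protein whose gene carries the repeat expansion of a spinocerebellar ataxia. It had 3 probes. The first (IMAGp998J02118) read -0.21, -0.15, 0.10 and 0.11 on arrays 1 to 4, and the second (IMAGp998K141155) 0.015, -0.19, -0.23 and 0.062. The third (IMAGp998L17385) read -0.13, -0.20, -0.066 and 0.055. On array 4 all 3 probes were above 0 and on array 2 all were below, whereas on array 1 the second stood apart from the others and on array 3 the first did. The shared values were -0.036, -0.084 and -0.086, of 1 sign and each with an interval that covers 0. Averaged over the 3 probes the shared component was -0.069 ± 0.051 (adjusted p = 0.594) and the alternating one -0.019 ± 0.051 (adjusted p = 0.852).

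WNT7B, a secreted ligand that the airway epithelium makes during lung growth, is the last of the members before the microRNAs. Its probe (IMAGp998O215514) read -0.11, -0.090, -0.024 and -0.16 on arrays 1 to 4. It was the probe among the 16 with 1 sign on all 4 arrays, as were 14.1% of all probes. The shared component was -0.095 ± 0.050 and did not pass (adjusted p = 0.495, 95% interval -0.21 to 0.018). The alternating component was 0.029 ± 0.050 (adjusted p = 0.745).

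Between WNT7B and the host transcript lies LINC00899, a long non-coding RNA, and between FBLN1 and ATXN10 lies LINC01589. They are not protein-coding and were added after the files were opened, as the non-coding genes of the stretch with a probe of 1 symbol. The 2 LINC00899 probes read -0.065, -0.14, -0.024 and -0.018, and 0.24, 0.067, 0.040 and -0.008, on arrays 1 to 4. The LINC01589 probe read 0.16, 0.069, 0.088 and -0.021. None of these 3 probes passed in either component (smallest limma adjusted p = 0.554). The host transcript MIRLET7BHG and the microRNA genes themselves were not measured under their symbols by a probe with 1 symbol, so the overexpression itself could not be checked on these arrays.

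PPARA, the first member after the microRNAs, encodes the nuclear receptor that switches on fatty acid oxidation, and had 4 probes. The first (IMAGp998B08778) read -0.090, 0.20, -0.14 and -0.096 on arrays 1 to 4. The second (IMAGp998I14373) read 0.22, 0.030, -0.052 and -0.022. The third (IMAGp998K051963) read 0.094, 0.20, -0.082 and 0.078, and the fourth (IMAGp998N175936) 0.062, -0.28, 0.12 and 0.080. On array 2 the first and the third probe were both at 0.20 and the fourth at -0.28, so clones of this gene went opposite ways on the same array. The 4 shared values lay between -0.033 and 0.073, with 2 of each sign. Averaged over its probes, PPARA had a shared component of 0.020 ± 0.041 (limma adjusted p = 0.870) and an alternating one of -0.004 ± 0.041 (adjusted p = 0.964). The sign of that alternating mean turned with median centring of the arrays (0.002) and with the probe of the largest statistic in place of the mean (0.096).

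CDPF1, the next protein-coding gene after PPARA, encodes a protein named for a cysteine-rich DPF motif and is read from the minus strand. Its probe (IMAGp998C2189) read -0.16, 0.23, -0.35 and 0.35 on arrays 1 to 4. Arrays 1 and 3 were negative, arrays 2 and 4 positive, and the orientations do not overlap. The alternating component was -0.27 ± 0.055 (limma adjusted p = 0.0336, 95% interval -0.40 to -0.15) and passed, while the shared one was 0.015 ± 0.055 (adjusted p = 0.938). The call was lost without array 2 (-0.30, adjusted p = 0.125), array 3 (-0.23, adjusted p = 0.0599) or array 4 (-0.24, adjusted p = 0.201). In those fits 0.424%, 4.25% and 0.518% of all probes passed. The call was also lost with the shared component left out of the fit (adjusted p = 0.0782) and without shared variance between probes (adjusted p = 0.311).

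PKDREJ, the next gene, also on the minus strand, encodes a large membrane protein of the polycystin family that is related to the sea urchin receptor for egg jelly and is known from testis and sperm. Its probe (RZPDp201G0515D) read 0.46, -0.72, 0.43 and -0.65 on arrays 1 to 4. The 2 arrays of each orientation lay within 0.1 of each other, and the orientation means were 0.44 and -0.68. The alternating component was 0.56 ± 0.049 (adjusted p = 0.00749, 95% interval 0.45 to 0.67). In size it ranked 31st of the 26629 probes and was the largest of the 291 genes of chromosome 22 measured. It passed without each array in turn (0.55 to 0.58, adjusted p between 0.00369 and 0.0178) and was lost without shared variance between probes (adjusted p = 0.249). The shared component of the same probe was -0.12 ± 0.049, with an unadjusted p of 0.037 and an adjusted p of 0.352, and did not pass. PKDREJ has 1 probe, so no second clone could be set beside it.

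The 2 called genes adjoin each other on the chromosome, and their alternating components had opposite signs. Whether that component holds the difference between let-7a-3 and parental cells is not settled by the labels. The PKDREJ log ratio minus that of CDPF1 was 0.623, -0.945, 0.780 and -0.998 on arrays 1 to 4. Each is read through 1 clone, and whether the clones or the transcripts set the difference was not tested.

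TTC38 encodes a protein with tetratricopeptide repeats. Its probe (IMAGp998F22657) read 0.018, 0.18, -0.26 and 0.090 on arrays 1 to 4. The orientations do not overlap, with array 3 the lowest. The alternating component was -0.13 ± 0.059 (limma adjusted p = 0.210) and the shared one 0.008 ± 0.059 (adjusted p = 0.972), and neither passed.

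GTSE1 encodes a microtubule-binding protein made late in the cell cycle that also restrains p53. Its probe (IMAGp998K201818) read 0.073, 0.21, -0.13 and 0.18 on arrays 1 to 4, with array 3 the only array below 0. The orientations do not overlap. The alternating component was -0.11 ± 0.054 (limma adjusted p = 0.233) and the shared one 0.082 ± 0.054 (adjusted p = 0.591).

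TRMU encodes the enzyme that adds sulphur to the wobble uridine of mitochondrial transfer RNAs. Its probe (IMAGp998J07120) read 0.12, -0.037, 0.31 and -0.17 on arrays 1 to 4, positive on arrays 1 and 3 and negative on arrays 2 and 4. With PKDREJ and CDPF1 it made up the 3 member probes whose sign followed the orientation on every array, which 28.8% of all probes did. The alternating component was 0.16 ± 0.055 (limma adjusted p = 0.120) and did not pass. The shared component was 0.057 ± 0.055 (adjusted p = 0.732).

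CELSR1, the last of the 7 genes after the microRNAs, encodes an atypical cadherin that orients epithelial cells within their sheet, and had 2 probes. The first (IMAGp998F215574) read -0.16, -0.23, 0.24 and -0.32 on arrays 1 to 4 and the second (IMAGp998I055632) 0.13, 0.21, -0.085 and 0.095. The probes had opposite signs on every array, with the first lower by 0.29, 0.44 and 0.42 on arrays 1, 2 and 4 and higher by 0.33 on array 3. Their shared values were -0.12 (adjusted p = 0.544) and 0.088 (adjusted p = 0.579), and their alternating values 0.16 (adjusted p = 0.185) and -0.065 (adjusted p = 0.494). The mean of both had a shared component of -0.014 ± 0.043 (limma adjusted p = 0.913) and an alternating one of 0.047 ± 0.043 (adjusted p = 0.527). That mean averages clones of opposite sign. The shared value of the first probe moved between -0.018 without array 1 and -0.22 without array 3 (adjusted p = 0.0746). Without array 1 the first probe passed in the alternating component (0.26, adjusted p = 0.0344), as did 7.04% of all probes in that fit.

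**Figure D2:**
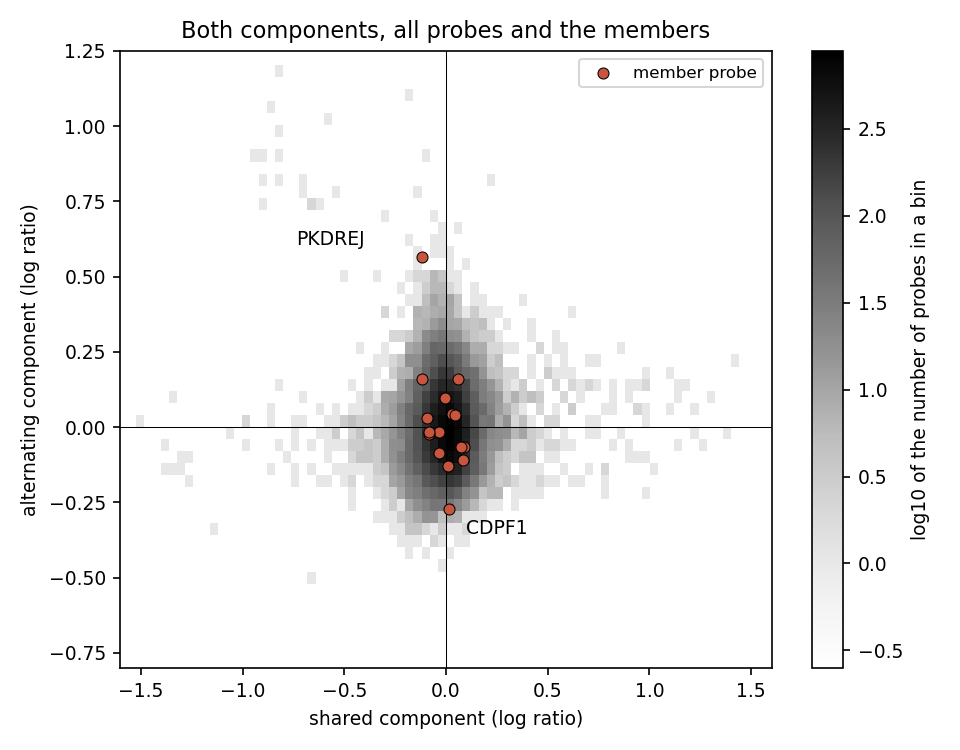
Shared component (horizontal axis) against alternating component (vertical axis), both as log ratios, with grey squares for the number of all 26629 probes in each bin on a log10 scale and red points for the 16 member probes. PKDREJ (0.56) lies above the main cloud and CDPF1 (-0.27) near its lower edge, and the other 14 lie within it.

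With probes averaged per gene, 0 of the 10 genes passed in the shared component, against 3.04% of all genes, and 1 of the 10 (PKDREJ) had an unadjusted p under 0.05 in limma, against 14.6%. In the alternating component 2 of the 10 passed, against 3.29% of all genes, CDPF1 (limma adjusted p = 0.0349) and PKDREJ (adjusted p = 0.00501), and 5 had an unadjusted p under 0.05, against 25.6%. Without array 1 there were 5, with TTC38 (-0.20), GTSE1 (-0.16) and TRMU (0.21) added, and 18.4% of all genes passed in that fit. In the probe fit without array 1 the same values did not pass (adjusted p = 0.0639 for TTC38, 0.0971 for GTSE1 and 0.0616 for TRMU). PKDREJ alone was left without array 2, where 0.312% of all genes passed, and without array 4, where 0.553% did. Without array 3 CDPF1 and PKDREJ passed, with 12.7% of all genes. The 10 alternating values were positive in 5 genes and negative in 5, and had a median of 0.013 against -0.008 over all genes. The shared values had a median of 0.012 against 0.007. In order along the chromosome the alternating values were 0.043 for FBLN1, -0.019 for ATXN10, 0.029 for WNT7B and -0.004 for PPARA. They went on with -0.27 for CDPF1, 0.56 for PKDREJ, -0.13 for TTC38, -0.11 for GTSE1, 0.16 for TRMU and 0.047 for CELSR1. Both genes called lie among the 7 after the microRNAs, where most of the 10 members are, and no test compared the sides.

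Farther out on 22q13, 31 listed genes have 5 to 30 protein-coding genes between them and let-7a-3, and 19 of them were measured. None passed in limma in either component, where 3.04% (shared) and 3.29% (alternating) of all genes did. An unadjusted p under 0.05 was reached by 1 of the 19 in the shared component, against 14.6% of all genes. In the alternating one 2 did, against 25.6%. The median was 0.006 in the shared component and -0.047 in the alternating one, where 15 of the 19 were negative. In that component 53.8% of all genes and 58.7% of the other genes of chromosome 22 were negative. The largest statistics were those of SAMM50, of the mitochondrial outer membrane (shared -0.12, adjusted p = 0.208), and TAFA5, a secreted protein (alternating -0.14, adjusted p = 0.10). TTLL1, of a family of tubulin-modifying enzymes, followed in the shared component (0.089, adjusted p = 0.413) and KIAA0930 in the alternating one (-0.11, adjusted p = 0.151). Over all 281 other genes of chromosome 22 measured, 1 passed in the shared component (0.356%), XBP1, which turns on chaperone and secretory genes when unfolded proteins build up (1.12, adjusted p = 2.81e-05). In the alternating component 11 passed (3.91%), 5 positive and 6 negative. No test compared these groups with each other.

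**Figure D3:**
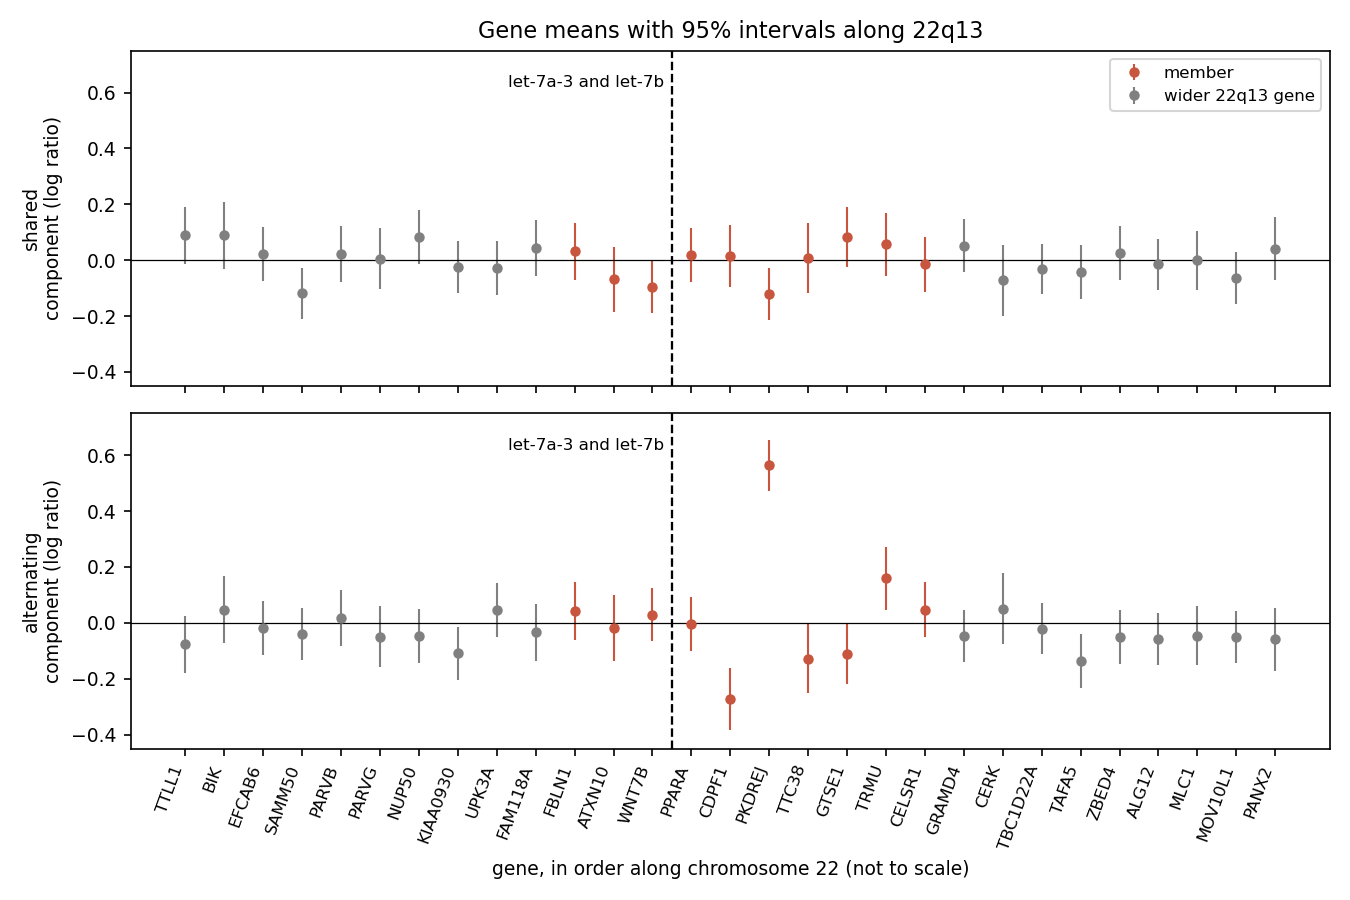
Shared (upper panel) and alternating (lower panel) components as log ratios, averaged over the probes of each gene, for the 10 members (red) and the 19 wider 22q13 genes measured (grey), in order along chromosome 22 and not to scale. Bars are moderated 95% intervals and the dashed line marks the let-7a-3 and let-7b genes, and PKDREJ (0.56) and CDPF1 (-0.27) stand away from 0 in the lower panel.

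The hosts and nearest genes of the let-7 genes on other chromosomes were set beside the members. Of 25 listed, each with at most 4 protein-coding genes between it and a let-7 gene, 19 were measured. CXADR, the coxsackievirus and adenovirus receptor of epithelial junctions, which has no protein-coding gene between it and let-7c on chromosome 21, passed in the shared component. Its probe read 0.50, 0.40, 0.32 and 0.64 on arrays 1 to 4 (0.47 ± 0.055, limma adjusted p = 0.00349). The other 18 did not pass in the shared component, where 3.04% of all genes did. None of the 19 passed in the alternating one in limma, against 3.29% of all genes. Counts at an unadjusted p under 0.05 were 3 in the shared and 5 in the alternating component, against 14.6% and 25.6% of all genes. TWF2, an actin-binding protein, and USP25, a deubiquitinase, came first in the alternating component, both at -0.15 (adjusted p = 0.0864 and 0.0958).

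Genes that work with the members were also counted, from lists chosen with earlier results of these data known. The shares of all genes to set beside each list were 3.04% called in the shared and 3.29% in the alternating component. At an unadjusted p under 0.05 in limma they were 14.6% and 25.6%. Of 19 measured receptors and response genes of WNT7B, the Wnt inhibitor DKK1 passed in the shared component (1.38 ± 0.056, adjusted p = 1.63e-05) and WLS, the carrier that Wnt ligands need for secretion, in the alternating one (0.25 ± 0.043, adjusted p = 0.0321). The WLS probe read 0.32, -0.20, 0.21 and -0.29 on arrays 1 to 4. DKK1 and WLS were the only genes of this list past the threshold. The WLS call was lost without array 2 (0.28, adjusted p = 0.116) or array 4 (0.23, adjusted p = 0.149). It was also lost with the shared component left out of the fit (adjusted p = 0.0923). The median of the 19 was 0.020 in the shared and 0.029 in the alternating component.

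None of 14 measured planar cell polarity genes, the partners of CELSR1, passed in limma. An unadjusted p under 0.05 was reached by 0 in the shared and 1 in the alternating component, against 14.6% and 25.6% of all genes. VANGL2, a core membrane protein of that pathway, had the largest alternating statistic (-0.15, adjusted p = 0.0833), ahead of FZD6 (0.11, adjusted p = 0.207). Among shared statistics PRICKLE2 came first (-0.073, adjusted p = 0.552), ahead of INTU (0.054, adjusted p = 0.593). The alternating value of PRICKLE2 was -0.10 (adjusted p = 0.219).

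Of 9 fibulins and matrix partners of FBLN1 measured, the proteoglycan versican, VCAN (1.04 ± 0.074, adjusted p = 0.000265), and fibronectin, FN1 (-0.39 ± 0.046, adjusted p = 0.00364), passed in the shared component with opposite signs. ADAMTS1, a protease of the matrix that binds fibulin 1, passed in the alternating one (0.46 ± 0.039, adjusted p = 0.00706). Its probe read 0.47, -0.49, 0.44 and -0.45 on arrays 1 to 4. Over all genes 3.04% passed in the shared and 3.29% in the alternating component. The FN1 mean covers 4 probes, at -1.35, -0.13, -0.21 and 0.12, of which the first alone passed, and the median of the 4 probes in place of the mean did not pass (-0.17, adjusted p = 0.0734).

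Of 19 partners and targets of PPARA measured none passed in the shared component in limma. At an unadjusted p under 0.05 there were 2 in the shared and 7 in the alternating component, against 14.6% and 25.6% of all genes. The mitochondrial enzyme ACADM (0.12, adjusted p = 0.195) and the coactivator PPARGC1A (0.13, adjusted p = 0.265) had the largest shared statistics. The coactivator NCOA1 passed in the alternating component (0.23 ± 0.044, adjusted p = 0.0395) but not without array 2 (0.24, adjusted p = 0.160) or array 4 (0.22, adjusted p = 0.176). Nor did it pass with the shared component left out of the fit (adjusted p = 0.0977).

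Of 13 measured genes of mitochondrial tRNA modification, the setting of TRMU, none passed in limma in either component. In each, 3 had an unadjusted p under 0.05, against 14.6% (shared) and 25.6% (alternating) of all genes. NFS1, the desulphurase that supplies the sulphur, was nearest to the threshold (shared 0.24, adjusted p = 0.0548), followed by TRMT61B (shared -0.20, adjusted p = 0.207). In the alternating component NSUN3 stood at -0.13 (adjusted p = 0.106).

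Of 8 measured partners of GTSE1 none passed in the shared component in limma. An unadjusted p under 0.05 was reached by 2 in the shared and 5 in the alternating component, against 14.6% and 25.6% of all genes. The microtubule end-binding protein MAPRE1 passed in the alternating component (-0.32 ± 0.049, adjusted p = 0.0261), and not without array 2 (-0.36, adjusted p = 0.0535) or array 4 (-0.27, adjusted p = 0.117). Nor did it pass with the shared component left out of the fit (adjusted p = 0.0923). The centromere kinesin KIF2C (0.12, adjusted p = 0.201) and the p53 target CDKN1A (-0.11, adjusted p = 0.25) had the largest shared statistics. Their alternating values were -0.15 for KIF2C (adjusted p = 0.0764) and -0.18 for CDKN1A (adjusted p = 0.0532), and did not pass.

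The probes of other genes most like the 2 called members were found by the Euclidean distance over the 4 log ratios. Nearest to PKDREJ were FNTA (0.36, -0.68, 0.48 and -0.52 on arrays 1 to 4, distance 0.170), PIKFYVE (distance 0.171) and ADGRG7 (distance 0.197). The 6 other PIKFYVE probes lay between -0.086 and 0.069 in the alternating component and the other FNTA probe at -0.011, none past the threshold. ADGRG7 has 1 probe. The nearest probes were picked for their likeness, so their other probes are given as values only. Nearest to CDPF1 were LRP2BP (-0.18, 0.22, -0.33 and 0.38, distance 0.038), RASSF6 (distance 0.041) and SFT2D3 (distance 0.049). The other 2 RASSF6 probes were at 0.071 and -0.004 in the alternating component and the other SFT2D3 probe at -0.082, none of which passed.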

How the data were processed

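The labels' series text says that the authors put scanner files of 4 two-colour arrays through ArrayMagic with VSN, and used limma. Values as deposited are log ratios whose base is unstated. VSN compresses ratios of dim spots. Spot filters and spot averaging are not stated.

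No further normalization was applied. Probes were named through the platform annotation: 20976 had 1 symbol, 848 several and 4805 none. Of these, 20963 matched the GRCh38.p14 gene table by gene ID, which changed 0 symbols and gave the order along the chromosome. Probes, and gene means over probes, went into limma 3.58.1 under R 4.3.3, with a common and a dye orientation coefficient on 2 residual degrees of freedom (prior 7.22 for probes). Two-sided p-values were adjusted by Benjamini and Hochberg's method across every probe or gene, at 0.05. The fit was tested on simulated data. Members and lists were chosen with earlier results of these data known. All members were named, with up to 4 genes of each list, those past the threshold or otherwise those with the largest statistic. Figures used matplotlib 3.10.9 in Python 3.11.15. Having only 4 arrays limits the precision.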

Additional observations from a re-analysis of the deposited data

Results flagged for a closer look

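Among the 16 member probes, tested as 4 arrays each with Dixon's criterion, 2 had 1 array far from the other 3 (12.5%), and 4.11% of all 26629 probes did. The criterion takes the 4 arrays as alike, although they come in 2 dye orientations, and chance flags about 1 in 20 such groups. Both belong to PPARA and in both it was array 2. The probe IMAGp998B08778 read 0.20 on array 2, against -0.14 to -0.090 on the others (gap 0.844 of the range). The probe IMAGp998N175936 read -0.28 there, against 0.062 to 0.12 on the others (gap 0.852 of the range). The deviations went opposite ways, and what set them was not tested.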

How the results depend on the processing

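The count of members called in the shared component was 0 of 16 probes and 0 of 10 genes under every alternative run. In the alternating component it was 2 of each under median centring, scaling to 1 median absolute deviation, quantile normalization, robust moderation and array weights. In those fits 2.86% to 3.73% of all genes and 4.15% to 5.31% of all probes passed. The count was also 2 for probes with 1 symbol, where 4.56% of them passed. It was 2 for the median or the largest statistic of a gene's probes, where 4.18% and 15.6% of all genes passed. The count fell to 1 probe and 1 gene (PKDREJ) with the shared component left out of the fit. It fell to 0 of each without moderation, which leaves 2 degrees of freedom. Calls over all features fell too. They fell to 0.0801% of genes and 0.383% of probes with the shared component left out, and to 1 gene and 4 probes without moderation. Leaving out 1 array gave 1 to 3 probes and 1 to 5 genes, while 0.424% to 7.04% of all probes and 0.312% to 18.4% of all genes passed.

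The signs that turned belonged to values that had not passed. The mean over PPARA probes in the alternating component turned to 0.0021 with median centring and 0.096 with the largest statistic. Leaving out 1 array turned the other signs. Shared components then ranged from -0.11 to 0.040 for ATXN10 IMAGp998J02118, -0.11 to 0.041 for PPARA IMAGp998B08778, -0.024 to 0.11 for IMAGp998I14373 and -0.095 to 0.086 for IMAGp998N175936. They ranged from -0.032 to 0.062 for CDPF1, -0.061 to 0.078 for TTC38, -0.0079 to 0.047 for the PPARA mean and -0.041 to 0.012 for the CELSR1 mean. Alternating components ranged from -0.094 to 0.058 for ATXN10 IMAGp998J02118, -0.084 to 0.039 for IMAGp998K141155, -0.078 to 0.048 for IMAGp998L17385 and -0.082 to 0.045 for their mean. For PPARA they ranged from -0.028 to 0.11 for IMAGp998I14373 and -0.031 to 0.023 for the mean. Alternatives for the other genes named as past the threshold were added after seeing the data. Without moderation none of these calls held, with adjusted p of 0.257 for ADAMTS1, 0.291 for DKK1 and XBP1, 0.302 for WLS, 0.303 for NCOA1, 0.305 for MAPRE1, 0.372 for VCAN and FN1 and 0.411 for CXADR.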
